A study of Homo sapiens with 6 samples.

Results

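SREBF2 encodes SREBP2, the transcription factor that switches on cholesterol synthesis genes, and CYP51A1 and ACAT2 are enzymes of that pathway. These 3 genes were chosen by their rows in the authors' deposited table of called genes, that is, on the fold change and adjusted p of the comparison described here, and they are 3 of the 1998 genes in it. Their fold changes are therefore given as a description, with the authors' standard error (SE) and adjusted p and no test added. RNA came from HepG2, a line from a human liver tumour with many features of hepatocytes. The groups were siCon, which received a control siRNA, and siH19, which received an siRNA against the long noncoding RNA H19, with 3 libraries each and harvest at 48 h. No other treatment is given for either group. Nothing in the labels makes the libraries of a group separate cultures, so the authors' errors may hold technical spread only. Each group is 1 cell line under 1 siRNA name, with 1 combined value per gene. H19 itself was not analysed here, so nothing in these values checks that the siRNA lowered it.

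SREBP2 is made as a precursor held in the membrane of the endoplasmic reticulum by SCAP and INSIG proteins. When sterols run low, the precursor moves to the Golgi, where the proteases S1P and S2P release the part that enters the nucleus and binds sterol regulatory elements (SREs) near the genes of the pathway. The pathway builds cholesterol from acetyl-CoA through mevalonate, squalene and lanosterol. The liver is a major site of it, and the SREBF2 gene is itself known to carry an SRE.

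The promoter stretches of SREBF2 and CYP51A1 are shown because the regulator and its target can be compared at the letters SREBP2 is known to recognise. Both are from RefSeq on GRCh38.p14, read 5′ to 3′ on the gene's strand, with any annotated untranslated sequence left out. ACAT2 had no promoter window in the reference used. Capitals mark a match to the SRE letters TCACNCCAC, to CCAAT (the NF-Y box) or to GGGCGG (the GC box of SP1), each searched on both strands. The SREBF2 stretch lies at chr22:41832855-41833078 on the plus strand, and the CYP51A1 stretch at chr7:92134531-92134665 on the minus strand.
SREBF2: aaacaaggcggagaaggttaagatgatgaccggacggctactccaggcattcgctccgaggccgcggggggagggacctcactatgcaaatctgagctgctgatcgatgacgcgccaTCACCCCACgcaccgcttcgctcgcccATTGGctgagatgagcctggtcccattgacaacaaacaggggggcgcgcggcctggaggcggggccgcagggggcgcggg
CYP51A1: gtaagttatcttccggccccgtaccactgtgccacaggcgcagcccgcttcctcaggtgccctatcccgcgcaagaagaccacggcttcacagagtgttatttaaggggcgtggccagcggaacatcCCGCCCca

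The SREBF2 stretch holds TCACCCCAC from base -133 to -125 before the annotated start, followed by the reverse CCAAT box from -106 to -102. Its 3 GC boxes lie nearer the start, from -23 on, outside the printed stretch. Over the full window of 250 bases before to 50 after the start, the SRE letters were found in 1.13% of 35116 promoter windows and CCAAT in 34.6%. Both together were found in 0.347% of windows. The CYP51A1 window held neither, and its only match was a reverse GC box from -61 to -56, a motif present in 45.0% of windows. Among the listed enzymes of the pathway, 5 of 7 had a window, 0 of these 5 held the SRE letters, 4 held CCAAT and 4 held a GC box. A gene was counted if any of its windows matched, and HMGCS1 has 2 windows and IDI1 has 3. These counts per gene are therefore not on the same footing as the shares per window. The enzymes with CCAAT were HMGCS1, IDI1, MVD and NSDHL. A match is a description of letters and not of a binding site, and no match says only that these letters are not in this window.

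All 3 genes were lower in siH19, each by 23% to 28% of its siCon level. The regulator, SREBF2, had in the authors' deposited table a log2 normalized count of 9.96 in siCon and 9.58 in siH19, which is 996 against 765 normalized counts. Its siH19 level was 76.8% of its siCon level, a log2 fold change of -0.38 ± 0.10 (SE) with an adjusted p of 0.00104 in the authors' deposited table. Whether the deposited fold changes were shrunken towards 0 is not given in the sources used here, and if they were, the printed folds and percentages may understate the changes. Without values per library, whether the libraries of the groups overlap cannot be seen for any of these genes.

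CYP51A1, the cytochrome P450 that removes the 14α-methyl group of lanosterol, is the step after the ring closure that makes the sterol skeleton. Its log2 normalized count in the authors' deposited table was 11.74 in siCon and 11.27 in siH19, or 3420 against 2469 normalized counts. That left 72.2% of the siCon level, a log2 fold change of -0.47 ± 0.08 (SE), and the adjusted p was written as 0 in the authors' deposited table, whose smallest value above 0 is 1e-06. By value CYP51A1 had the largest fall of the 7 listed enzymes of the pathway looked up here. It was chosen on this comparison, and NSDHL, at -0.39 ± 0.14, lay within 1 SE of its own from the CYP51A1 value.

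ACAT2, the cytosolic thiolase that joins acetyl-CoA units to acetoacetyl-CoA, stands at the opposite end of the pathway, before mevalonate. The authors' deposited table gave it a log2 normalized count of 11.19 in siCon and 10.74 in siH19, or 2336 against 1710 normalized counts. The level in siH19 was 73.2% of that in siCon, with a log2 fold change of -0.45 ± 0.08 (SE) and an adjusted p of 1e-06 in the authors' deposited table. The same letters were once also used for SOAT2, an enzyme that esterifies cholesterol. SOAT2 has a row of its own in the authors' deposited table, at -0.82 ± 0.16, so the ACAT2 row was read as the thiolase.

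**Figure D1:**
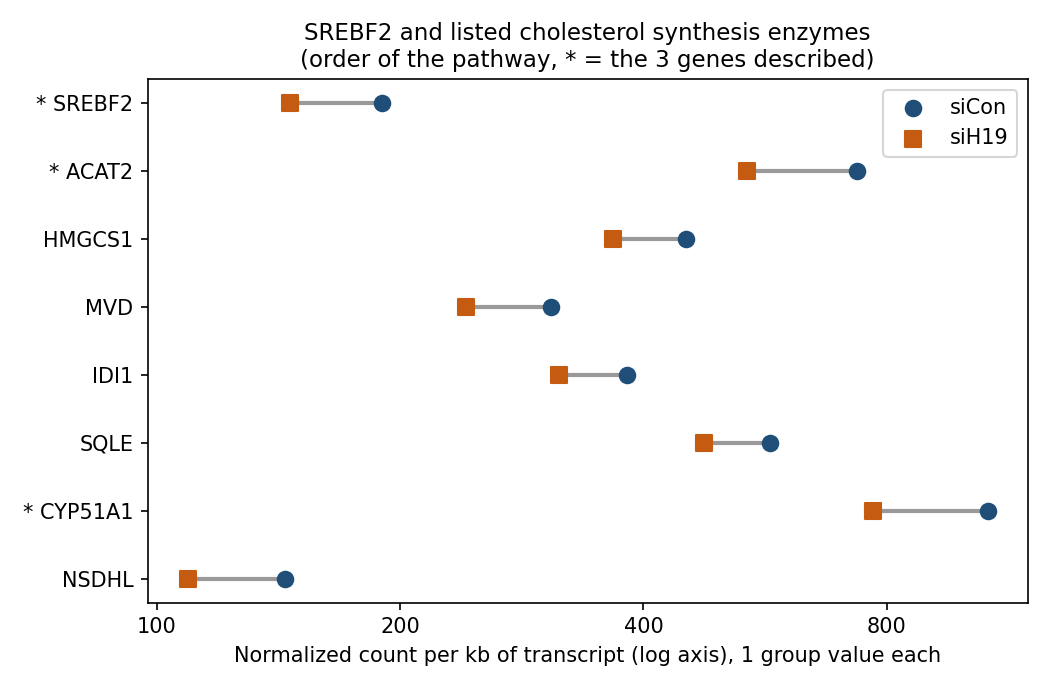
Normalized count per kb of transcript on a log axis for SREBF2 and 7 listed cholesterol synthesis enzymes, top to bottom in pathway order, with circles for siCon and squares for siH19 (1 combined value per group, no error given in the table). Every square lies to the left of its circle, and CYP51A1 and ACAT2 are the enzymes furthest to the right while SREBF2 lies left of all enzymes but NSDHL.

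The regulator and the enzymes were set against each other by difference and by level. The CYP51A1 log2 fold change lay 0.09 below that of SREBF2 (difference -0.09, combined SE 0.128, with -0.346 to 0.166 at 2 combined SEs). For ACAT2 against SREBF2 the difference in log2 fold change was -0.07 (combined SE 0.128, -0.326 to 0.186). Between the enzymes, CYP51A1 minus ACAT2 was -0.02 (combined SE 0.113, -0.246 to 0.206). Each difference was smaller than 1 combined SE, computed from the authors' SEs as if the errors of the genes were independent, so the data do not separate the genes by size of fall, nor do limits this wide show equal falls. In normalized counts, SREBF2 fell by 231, ACAT2 fell by 626 and CYP51A1 fell by 951, an order that follows their levels.

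Levels can be compared between genes only per length, and per kb of the longest-coding transcript in GENCODE 29 the order was CYP51A1, ACAT2, SREBF2 in both groups. CYP51A1 (3.21 kb) had 1066 normalized counts per kb in siCon and 769 in siH19. ACAT2 (3.18 kb) had 735 and 538, and SREBF2 (5.24 kb) had 190 and 146. The CYP51A1 level per kb of transcript was thus 5.61 times that of SREBF2 in siCon and 5.27 times in siH19, and the ACAT2 level 3.87 and 3.68 times. Per kb of coding sequence the CYP51A1 level was 7.70 and 7.23 times that of SREBF2, and the ACAT2 level 6.74 and 6.42 times. The order was kept, but the size of these ratios depends on the length used, and transcript length was added after seeing the data. Among these 7 listed enzymes CYP51A1 ranked 1 and ACAT2 ranked 2 by level per kb of transcript in both groups. The table has no error for a group level, so no spread can be set beside these ratios, and the gene models the authors counted on are not given in the sources used here.

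Read against all lower genes of the table, whatever their level, the falls of the 3 genes were of middling size. The authors' deposited table lists 1105 of its 1998 genes as lower in siH19, a background of 55.3%, and the median log2 fold change of those lower genes was -0.44. Of the 1105, 484 fell by more than CYP51A1, 517 by more than ACAT2 and 696 by more than SREBF2. These comparisons take in genes of low count, which are listed only at larger fold changes. Since the 3 genes were taken from this comparison, that all 3 are lower says nothing further beside the 55.3%. By mean normalized count they ranked 226 (CYP51A1), 367 (ACAT2) and 808 (SREBF2) of 1998.

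**Figure D2:**
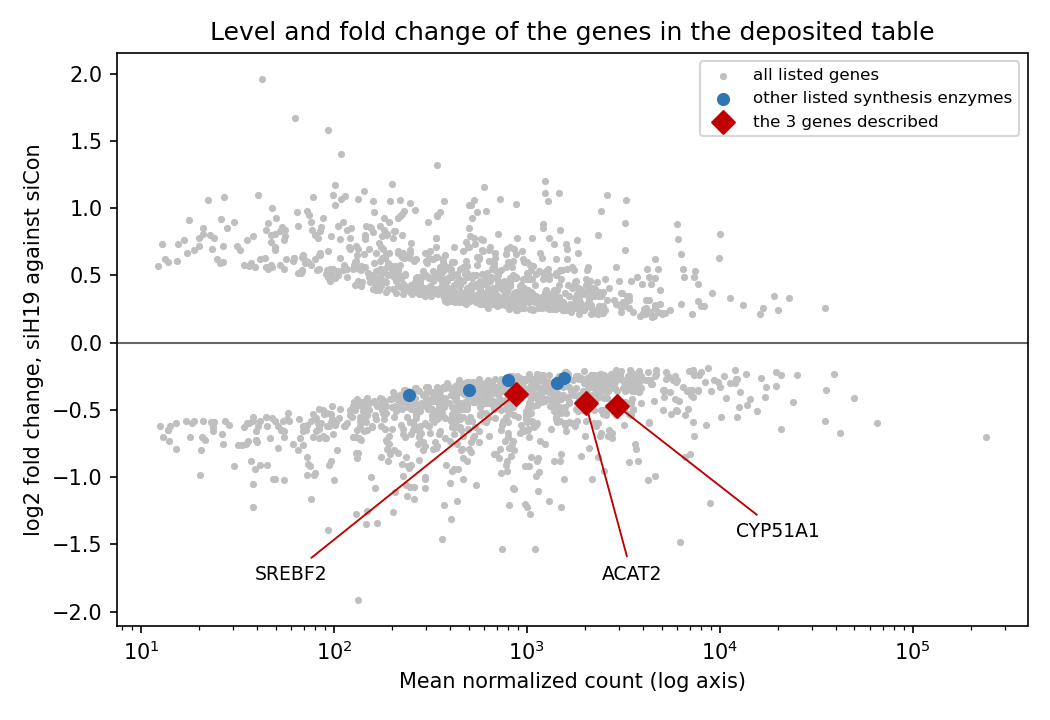
Log2 fold change of siH19 against siCon (vertical axis) by mean normalized count (horizontal log axis) for all 1998 genes of the deposited table in grey, with SREBF2, CYP51A1 and ACAT2 as red diamonds and 5 other listed synthesis enzymes as blue points. The empty band around 0 is where genes were not called, so none lies nearer to 0 than 0.19, and the 3 diamonds sit between -0.38 and -0.47.

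The precision of the 3 rows was that of their neighbours in level. Among the 326 other genes within 25% of the mean count of SREBF2 the median SE was 0.10, the same as its own. For CYP51A1 the median over 168 such genes was 0.08, and for ACAT2 0.09 over 218. Among the lower genes of like level the median log2 fold change was -0.38 around SREBF2, the same as its own. Around CYP51A1 it was -0.34 and around ACAT2 -0.38, both smaller falls than those of the 2 enzymes, which were chosen on this comparison. In those neighbourhoods the smallest falls listed were -0.23 for SREBF2, -0.20 for CYP51A1 and -0.21 for ACAT2, which is about where the table stops, and genes with smaller changes were not analysed here.

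The other listed enzymes of the pathway lay in the same direction, by value with smaller falls than CYP51A1 and ACAT2, which were chosen on this comparison. Of 21 symbols looked up for cholesterol synthesis, 7 are in the authors' deposited table, and all 7 fell. Their median was -0.35 on the log2 scale. Over all 1998 listed genes 55.3% were lower, and the median over falls and rises together was -0.27. Among the lower genes alone, over all levels, the median was -0.44, a larger fall than the median of the 7 enzymes. It takes in genes of low count, which are listed only at larger fold changes. The other 14 symbols were not analysed here, so the count describes the called genes and not the pathway. Without CYP51A1 and ACAT2, the 5 that are left ran from -0.39 to -0.26 with a median of -0.30. By log2 fold change, 3 of the 7 enzymes fell by more than SREBF2 and 4 by less.

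Before mevalonate, the authors' deposited table gave HMGCS1, which makes HMG-CoA from the product of ACAT2, a log2 fold change of -0.30 ± 0.08 (adjusted p = 0.00244). Between mevalonate and lanosterol the 3 listed enzymes were at -0.35 to -0.26. In the authors' deposited table MVD, which forms isopentenyl diphosphate, was at -0.35 ± 0.13, with an adjusted p of 0.0452 close to the largest in the table, 0.0498. IDI1, which isomerises that product, was at -0.28 ± 0.09 and SQLE, the squalene epoxidase, at -0.26 ± 0.08 in the authors' deposited table. After lanosterol, NSDHL, which acts downstream of CYP51A1 in removing the C4 methyl groups, was at -0.39 ± 0.14 in the authors' deposited table. MVD, IDI1 and NSDHL are the 3 of the 7 whose adjusted p was 0.01 or more, and MVD and NSDHL the 2 whose fold change was under 3 SEs.

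**Figure D3:**
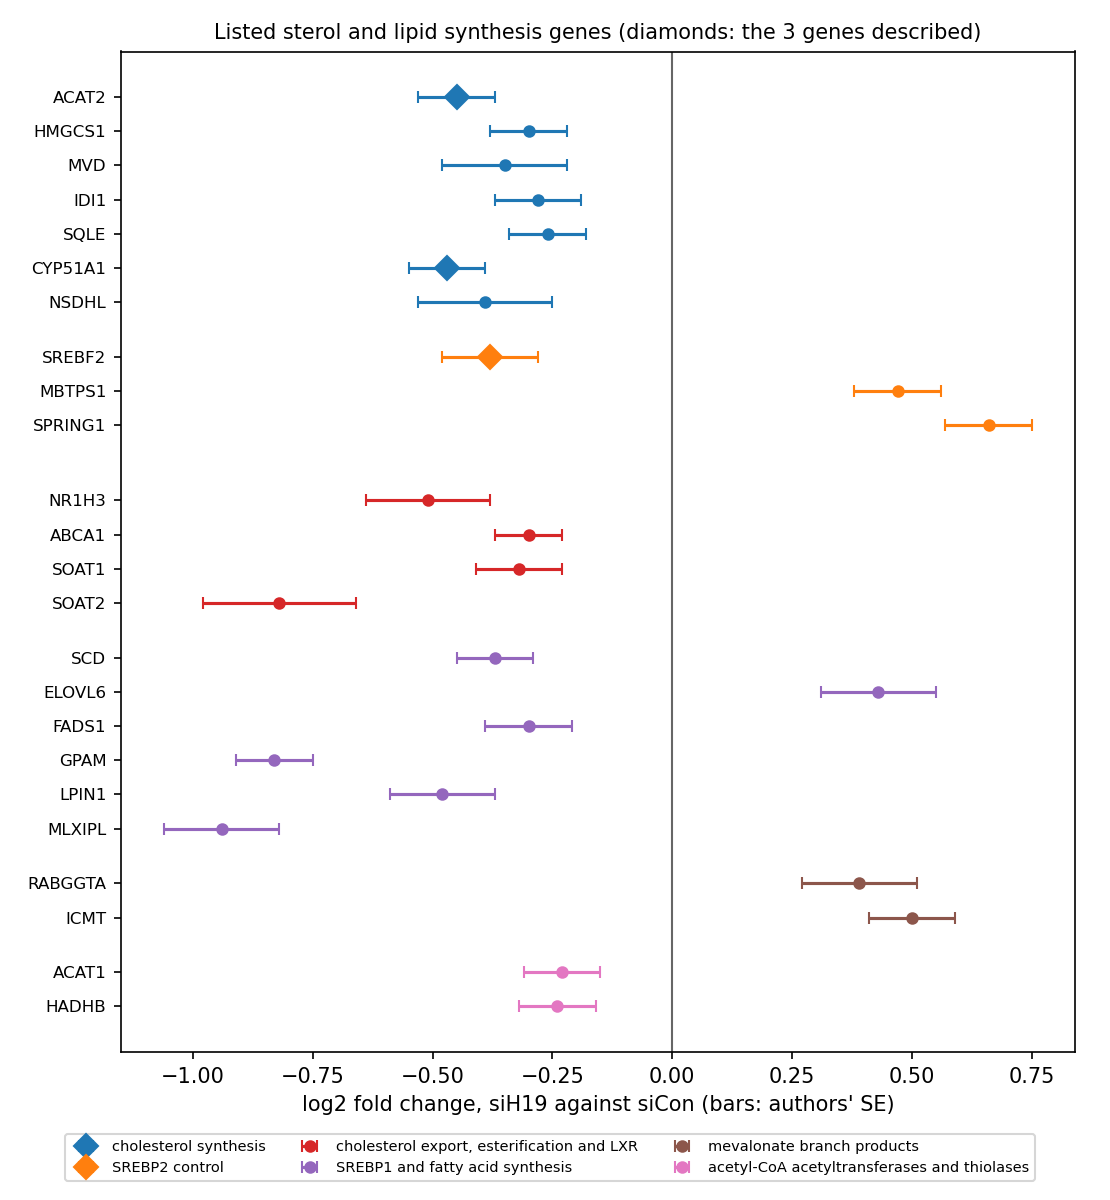
Log2 fold change of siH19 against siCon with the authors' SE as bars for the 24 listed genes of 6 lists on sterol and lipid synthesis, coloured by list, with diamonds for SREBF2, CYP51A1 and ACAT2. The 7 synthesis enzymes lie between -0.47 and -0.26, and SPRING1 (0.66) and MBTPS1 (0.47) lie on the opposite side of 0 from SREBF2.

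Of 14 symbols for SREBP2 and its control, 3 are in the authors' deposited table, SREBF2 as the 1 lower and the other 2 higher. The 11 that are left were not analysed here. MBTPS1, the gene of the protease S1P that makes the first cut in SREBP2, rose from 11.06 to 11.53 in log2 normalized count, a fold change of 0.47 ± 0.09 (adjusted p = 3e-06) in the authors' deposited table. SPRING1, listed there under its older symbol C12orf49 and known as a partner that S1P needs, rose from 9.41 to 10.07, a fold change of 0.66 ± 0.09 in the authors' deposited table with an adjusted p written as 0. The regulator thus had less RNA in siH19 and these genes for its cleavage more. The amount of cleaved SREBP2 protein was not measured.

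Genes of cholesterol handling and of the sister pathway were looked up in the same way. The share of all tested genes that were called is not known here, so the numbers listed are not read as a result. Of the 16 symbols looked up for cholesterol uptake and transport, 0 are listed. Over all listed genes 55.3% were lower, with a median of -0.27, and the lower genes alone had a median of -0.44. For export, esterification and the sterol sensor LXR, 4 of 14 symbols are listed and all 4 were lower, with a median of -0.42. They were SOAT2, NR1H3, which encodes LXR alpha (-0.51 ± 0.13), SOAT1 (-0.32 ± 0.09) and the cholesterol exporter ABCA1 (-0.30 ± 0.07) in the authors' deposited table. In a list on SREBP1 and fatty acid synthesis, 6 of 16 symbols are listed, 5 lower and 1 higher. Their median was -0.43, beside the same 55.3% and -0.27. The list is wider than the fatty acid enzymes, and those of them listed, SCD, FADS1 and ELOVL6, went in mixed directions. MLXIPL (-0.94 ± 0.12) and GPAM (-0.83 ± 0.08), which starts glycerolipid synthesis, had larger falls in the authors' deposited table than any of the 7 cholesterol enzymes. The desaturase SCD was at -0.37 ± 0.08, LPIN1 at -0.48 ± 0.11, FADS1 at -0.30 ± 0.09 and the elongase ELOVL6 at 0.43 ± 0.12 in the authors' deposited table.

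The side branches of mevalonate and the relatives of ACAT2 were looked up as well. Of 13 symbols for branch products 2 are listed, both higher in the authors' deposited table, ICMT, which methylates prenylated proteins (0.50 ± 0.09), and RABGGTA, a subunit of the enzyme that prenylates Rab proteins (0.39 ± 0.12). Of 6 thiolases 3 are listed and all 3 were lower. Their median of -0.24 was a smaller fall than the -0.44 of all lower genes, which was taken over all levels. Over all listed genes 1105 were lower (55.3%) and 893 higher, and counts of 2 and 3 show little beside that. Next to ACAT2, the mitochondrial ACAT1 was at -0.23 ± 0.08 and HADHB, of mitochondrial fatty acid oxidation, at -0.24 ± 0.08 in the authors' deposited table.

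Genes most like each member were found by the distance between the pairs of log2 group levels, over 2 groups and so on 2 values only. Nearest to SREBF2 were PC (distance 0.020), PARD6B and S100A16 (0.022 each). For CYP51A1 they were CREB3L2 (0.040), BDP1 (0.050) and IL1R1 (0.061), and for ACAT2 they were CPB2 (0.022), NIPSNAP1 (0.057) and FGFR4 (0.058). With so few values this likeness is of level and fold change alone, and none of these 9 genes is in the 7 lists.

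Neighbouring genes and the cell line bear on how the rows can be read. In GENCODE 29 ACAT2 overlaps SOD2 on the opposite strand, and SOD2 was also lower, from 12.10 to 11.20 in log2 normalized count, at -0.89 ± 0.10 in the authors' deposited table. The libraries were strand-specific per the labels, but whether the counting used strand is not given in the sources used here, and the part of SOD2 reads in the ACAT2 value was not tested. SREBF2 overlaps the antisense gene SREBF2-AS1 and hosts MIR33A. CYP51A1 overlaps CYP51A1-AS1 and gene models on its own strand, and 3 annotated pseudogenes carry its name. ACAT2 also overlaps TCP1. None of these other genes was analysed here. All 8 hepatocyte markers looked up were listed, at log2 normalized counts of 10.00 to 18.19 in siCon and 9.13 to 17.48 in siH19, and all were lower in the authors' deposited table, from TTR (-0.88) to APOA1 (-0.33). Of 7 markers of other cells 3 were listed, LYZ, CD68 and ACTA2, all lower as well, at 9.75 to 14.63 in siCon and 8.92 to 13.99 in siH19. The samples are of 1 cell line, so a row for such a marker does not show that other cells were present. The part of these markers in the falls of the 3 genes was not tested, and in bulk RNA fewer cells of a kind and less RNA per cell cannot be told apart.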

How the data were processed

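All values come from 1 table deposited by the authors. Its rows are called genes, and its columns, per the file headers, are the log2 counts of both groups, their mean count, the log2 fold change with its SE, and a q-value (adjusted p-value). The group levels and fold changes were deposited by the authors on the log2 scale, rounded to 0.01, and the mean count was deposited as a normalized signal, not whole reads. STAR 2.5.0a, Cufflinks 2.2.1, DESeq2 1.0.0 and the build hg19 are named, without roles, per the submitters' processing notes. Annotation and library totals are not given in the sources used here, which leaves the depth unknown and single genes without counting intervals.

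No model was refitted: the design foresaw one only for values per library. Computed here (Python 3.11.15, pandas 2.3.3) were linear levels, levels per kb with GENCODE 29 lengths, differences between fold changes, counts over 7 gene lists with 99 symbols (24 listed, in 6 of the lists), and motif matches in RefSeq promoter windows. The motif search and the search for nearest genes were tested on simulated data. Gene positions are on GRCh38, not the authors' build, and served only for overlaps, lengths and promoters. Named genes are the 3 members, every listed symbol of the 7 lists, the 3 nearest genes of each member, and listed markers or overlapping genes beside a result. Some genes of these lists are not reported here, and the counts leave them out. The members and lists were chosen with earlier results of these data known.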

Additional observations from a re-analysis of the deposited data

How the results depend on the processing

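The fold changes of SREBF2, CYP51A1 and ACAT2 and the 3 differences between them were the same when taken from the group levels. That was fixed in advance and is no check on processing. Over the whole table, the fold change and the difference of the group levels were at most 0.01 apart, which is the rounding. Set against the median of all listed genes (-0.27), the fold changes were -0.11 for SREBF2 (SE 0.10), -0.20 for CYP51A1 (SE 0.08) and -0.18 for ACAT2 (SE 0.08). The direction was kept, but all 3 moved towards 0 and the SREBF2 value was close in size to its SE. The median used is over called genes only, so it is no measure of unchanged genes. Of the 7 listed synthesis enzymes, all lower, 4 were left at an adjusted p under 0.01. When mean levels below the median of the listed genes were dropped, 5 were left. With current symbols only the count had to stay at 7, since none of these enzymes is listed under an older symbol. These settings only drop genes, so no enzyme could turn higher under them. Over all listed genes the count of lower genes went from 1105 to 732 (562 higher) and to 596 (403 higher) under the first and the second of these settings. The ratio of ACAT2 to CYP51A1 level in siCon was 0.683 as counted, 0.876 per kb of coding sequence, and, in settings added after seeing the data, 0.690 per kb of transcript and 0.719 per kb of joined exons. CYP51A1 stayed above ACAT2, and ACAT2 above SREBF2, in each. No paired analysis was possible because the table holds 1 combined value per group, and for the same reason no library could be left out. Genes outside the table, which may have changed by less than it could call, limit every count given here.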
